A study of Mus musculus with 12 samples.

Results

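The genes described here encode the signalling chains of the T cell receptor, its coreceptors and the first enzymes and adaptor that act on them: Cd3e, Cd3d, Cd3g, Cd247, Cd4, Cd8a, Cd8b1, Lck, Zap70 and Lat. They were fixed by name, and their regions are the rows of the ATAC-seq master peak-list in which HOMER gave one of the 10 symbols as the nearest promoter. These rows came to 34 of 84243 peaks, and 8 of the 10 genes had at least 1. Among all protein-coding RefSeq genes, 77.3% had at least 1 peak, so the members' share was near the background. ATAC-seq maps open chromatin with a transposase that cuts exposed DNA, and a peak is a region where its cuts piled up.

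Cells came from wild-type C57BL/6 mice aged 8 to 12 weeks and were sorted by surface markers into 6 cell types with 2 replicates each, 12 samples in all. Hematopoietic stem cells (HSCs, cKit+ Lin- Sca1+ Flk2- Slamf1+), megakaryocyte progenitors (MkPs, CD41+), erythroid progenitors (EPs, CD71+), granulocyte/macrophages (GMs, Gr1+ Mac1+) and B cells (B220+ CD43-) were taken from bone marrow. T cells came from thymus by the labels and were sorted as CD3+, CD25- and negative for a lineage cocktail that included CD5, with CD4 and CD8 both allowed to vary, so they were not divided by coreceptor. The deposited list is pooled over the 6 cell types, names no cell type for a peak and holds 0 columns of values per sample, and its score was 0 in every peak. The labelled cell types could therefore not be checked against markers, the depth behind each peak is unknown, and no peak below can be ascribed to T cells or to any other cell type.

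The T cell receptor has no enzyme of its own. Its antigen-binding chains pair with CD3 epsilon, delta, gamma and zeta chains, whose cytoplasmic tails carry tyrosine motifs that are phosphorylated when the receptor binds peptide on an MHC molecule. The coreceptors CD4 and CD8 bind MHC class II and class I and bring the kinase LCK to the complex. LCK phosphorylates the CD3 tails, ZAP70 docks there and phosphorylates the adaptor LAT, and LAT gathers the enzymes that raise calcium and activate RAS. In the thymus, developing T cells pass from having neither coreceptor to having both and then keep one of them.

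The sequences on which the later sections turn are printed here: the promoter peaks of Cd3e, Lck and Zap70, 1 distal peak each for the Cd3 and Cd8 clusters, and both peaks of Cd4, which had none at its promoter. Sequence is that of GRCm38.p6, the assembly named mm10, read 5′ to 3′ on the strand of the gene and shortened to at most 300 bases outside the annotated exons. Capitals mark exact matches, on either strand, to strings bound by factor families active in blood cells: AGGAAG for ETS, TGTGGT for RUNX, CTTTGA for TCF/LEF, AGATAA for GATA, and the E-box strings CAGCTG and CAGGTG for E proteins. No string contains another, although neighbouring matches may share end bases. The stretch labelled Cd3e promoter is chr9:45009146-45009347 (minus strand), a part of the promoter peak that lies downstream of the TSS. The Cd3e stretch 5489 bp upstream is chr9:45014929-45015228 (minus strand). The Cd8b1 stretch is chr6:71316528-71316827 (plus strand). The Cd4 stretches are chr6:124885216-124885515 in intron 1 and chr6:124898351-124898650 upstream (minus strand). The Lck stretches are chr4:129573642-129573903 at the distal promoter and chr4:129558373-129558672 at the proximal promoter (minus strand). The Zap70 stretches are chr1:36761544-36761797 at the first TSS and chr1:36766431-36766730 at the internal TSS (plus strand).
Cd3e promoter: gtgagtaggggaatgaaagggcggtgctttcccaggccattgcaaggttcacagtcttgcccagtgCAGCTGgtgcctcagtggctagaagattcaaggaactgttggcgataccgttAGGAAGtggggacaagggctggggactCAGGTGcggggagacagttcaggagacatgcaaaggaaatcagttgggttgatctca
Cd3e upstream: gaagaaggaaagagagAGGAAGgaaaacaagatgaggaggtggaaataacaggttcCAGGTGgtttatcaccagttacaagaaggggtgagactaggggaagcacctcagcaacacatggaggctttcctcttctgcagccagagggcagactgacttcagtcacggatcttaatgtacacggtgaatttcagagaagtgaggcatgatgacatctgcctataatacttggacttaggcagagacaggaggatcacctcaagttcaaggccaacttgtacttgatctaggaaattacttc
Cd8b1 upstream: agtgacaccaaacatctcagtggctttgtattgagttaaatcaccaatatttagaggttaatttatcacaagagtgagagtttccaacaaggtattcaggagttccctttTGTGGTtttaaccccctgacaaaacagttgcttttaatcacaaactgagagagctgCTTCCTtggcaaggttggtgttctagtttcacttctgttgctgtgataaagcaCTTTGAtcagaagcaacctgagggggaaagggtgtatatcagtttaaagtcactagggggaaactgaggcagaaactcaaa
Cd4 intron 1: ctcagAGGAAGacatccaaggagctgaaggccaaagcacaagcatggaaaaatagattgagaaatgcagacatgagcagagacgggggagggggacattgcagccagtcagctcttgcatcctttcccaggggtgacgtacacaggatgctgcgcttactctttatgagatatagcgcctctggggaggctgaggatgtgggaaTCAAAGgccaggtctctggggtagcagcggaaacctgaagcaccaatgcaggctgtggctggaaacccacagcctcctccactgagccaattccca
Cd4 upstream: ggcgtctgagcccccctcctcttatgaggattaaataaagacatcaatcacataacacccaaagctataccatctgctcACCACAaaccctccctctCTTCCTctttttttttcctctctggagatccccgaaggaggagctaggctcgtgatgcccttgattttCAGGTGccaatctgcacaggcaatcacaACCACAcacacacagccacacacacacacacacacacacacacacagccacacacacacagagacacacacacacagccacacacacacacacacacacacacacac
Lck distal promoter: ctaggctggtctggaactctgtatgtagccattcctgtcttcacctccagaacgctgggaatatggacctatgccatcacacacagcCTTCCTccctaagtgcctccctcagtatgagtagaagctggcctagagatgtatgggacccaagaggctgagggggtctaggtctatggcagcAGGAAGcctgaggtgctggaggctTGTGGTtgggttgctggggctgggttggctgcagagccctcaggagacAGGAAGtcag
Lck proximal promoter: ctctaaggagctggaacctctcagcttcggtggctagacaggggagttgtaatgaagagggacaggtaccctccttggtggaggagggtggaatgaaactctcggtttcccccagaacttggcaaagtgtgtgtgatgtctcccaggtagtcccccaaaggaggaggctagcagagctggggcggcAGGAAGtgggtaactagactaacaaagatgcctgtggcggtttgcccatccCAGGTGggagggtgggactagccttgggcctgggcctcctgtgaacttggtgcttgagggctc
Zap70 first promoter: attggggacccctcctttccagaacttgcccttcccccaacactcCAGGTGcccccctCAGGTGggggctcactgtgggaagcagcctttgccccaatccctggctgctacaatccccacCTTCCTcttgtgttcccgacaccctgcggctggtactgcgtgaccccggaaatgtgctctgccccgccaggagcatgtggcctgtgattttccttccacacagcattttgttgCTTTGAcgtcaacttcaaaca
Zap70 internal promoter: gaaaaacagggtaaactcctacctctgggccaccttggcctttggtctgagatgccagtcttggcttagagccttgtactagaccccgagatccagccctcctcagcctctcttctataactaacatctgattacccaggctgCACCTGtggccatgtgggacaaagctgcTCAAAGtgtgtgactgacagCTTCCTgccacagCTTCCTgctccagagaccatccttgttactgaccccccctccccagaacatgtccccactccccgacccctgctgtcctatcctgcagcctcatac

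Peaks were spread unevenly over the genes. Cd247 had 12 peaks and Zap70 had 10, together 22 of the 34 by gene name. Cd3e and Lck had 3 each, Cd3d and Cd4 had 2 each, Cd8b1 and Lat had 1 each, and Cd3g and Cd8a had 0. When peaks were instead counted in and within 10 kb of each transcript, whatever their gene name, Cd247 kept 12 and Cd8a 0, but Zap70 had 4, Lck 9, Cd3g 4, Cd4 4 and Lat 3. The members' median was 2 peaks, equal to the median of 2 over all 21000 protein-coding genes (quartiles 1 and 4). Genes with at least 10 peaks were 8.16% of all protein-coding genes, and those with at least 12 were 5.5%.

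A peak was counted as a promoter peak when its centre fell no more than 500 bp from a transcription start site (TSS), and there were 7 among the members' 34 (20.6%, 95% Wilson interval 10.3 to 36.8%, counting error only). In the whole list 15.6% of peaks were promoter peaks. The interval takes the peaks as independent, but 22 of the 34 belonged to Cd247 and Zap70, so it gives no test against the list. By gene, 5 of the 10 had a promoter peak: Cd3e, Cd247, Lck, Zap70 and Lat. The background was 54.8% of protein-coding genes. It was 20.7% of those whose TSS, like the TSS of each of the 10 members, lay in CpG-poor sequence, here a ratio of observed to expected CpG under 0.5 in the 250 bp on each side, a limit set for this work. CpG-rich genes had a promoter peak in 77.2% of cases. The members' ratios ran from 0.12 at Cd3g to 0.40 at Cd4, and the genes with and without a promoter peak overlapped in it.

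**Figure D1:**
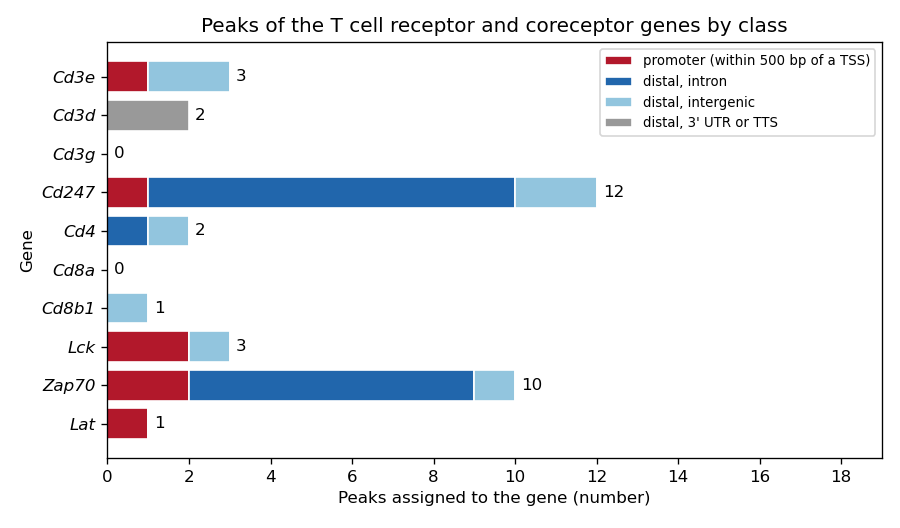
Peaks assigned to each gene (x axis, number of peaks; y axis, gene), coloured by class. Cd247 and Zap70 carry the long bars with 12 and 10 peaks, mostly in introns, for the distal Zap70 peaks those of other transcripts. Cd3g and Cd8a have none, and promoter peaks occur at 5 of the 10 genes.

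The remaining 27 peaks were distal. Of these, 17 were annotated to introns (63.0%, against 48.0% of all distal peaks in the list), 8 were intergenic (29.6% against 44.6%) and 2 lay at a gene end. They stood between 1754 and 69884 bp from the nearest TSS, with a median of 16999 bp against 22261 bp over the list. Upstream peaks numbered 10 and downstream peaks 17 (37.0% upstream, against 41.7% of all distal peaks in the list). Since 19 of the 27 belonged to Cd247 and Zap70, these shares describe mainly that pair of genes. The 7 distal intron peaks of Zap70 lay in introns of other transcripts, not of Zap70.

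**Figure D2:**
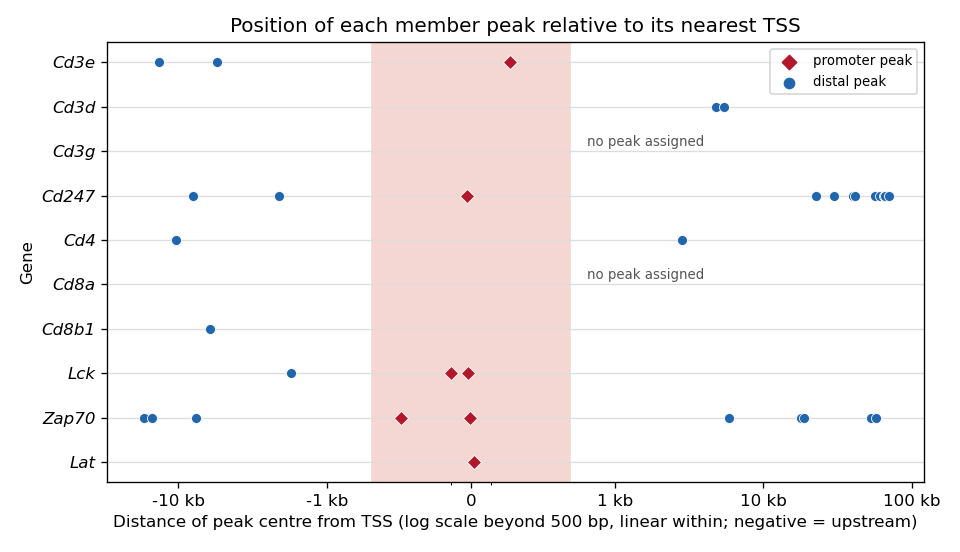
Distance from the TSS to each of the 34 peak centres (x axis, bp, linear within 500 bp and logarithmic beyond, negative upstream) for each gene (y axis). Diamonds are promoter peaks and circles are distal peaks. The shaded band is the 500 bp promoter range, and the downstream peaks of Cd247 reach out to 69884 bp.

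The Cd3 cluster on chromosome 9 holds Cd3g, Cd3d and Cd3e, which encode the gamma, delta and epsilon chains that pair as gamma-epsilon and delta-epsilon in the receptor. The TSSs of Cd3g and Cd3d are 1355 bp apart on opposite strands, pointing away from each other, and the Cd3e TSS lies 27825 bp from that of Cd3d. The cluster had 5 assigned peaks, 1 at a promoter and 4 distal. Within the 40 kb from one end of the cluster to the other there were 3 peaks.

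Cd3e had the promoter peak of the cluster, at chr9:45009146-45009644, centred 195 bp downstream of the TSS used by HOMER and 216 bp downstream of the RefSeq TSS, in exon 2 of 8. It is the sole member promoter peak centred in an exon other than the first. Its longest stretch outside exons, the 202 bases printed above, lies downstream of the peak centre and holds 1 ETS string, 1 CAGCTG and 1 CAGGTG. The whole peak holds 2 ETS strings, 1 CAGCTG and 2 CAGGTG. The other Cd3e peaks were intergenic, at chr9:45014830-45015328, 5489 bp upstream, and at chr9:45022751-45023249, 13410 bp upstream. The nearer of these held ETS, RUNX and CAGGTG strings across its 499 bp. The farther one had the lowest GC content of the members' distal peaks, 39.9%, and held GATA and TATA strings but no ETS string.

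Cd3d had 2 peaks, and both lay at its far end rather than at its start. The peak at chr9:44986354-44986852 was centred in exon 5 of 5, in the untranslated end, 4817 bp downstream of the TSS. The peak at chr9:44986947-44987445 followed it at the transcription termination site, 5410 bp downstream. Both held TCF/LEF strings, and the first also held 2 RUNX strings. Cd3g had no peak under its name and none inside its transcript, although 4 lay within 10 kb of it, 2 named for Cd3d and 2 for Ube4a. The peak nearest to its TSS was the first Cd3d peak, 6172 bp upstream, and 72.3% of protein-coding genes had a nearer one. No peak was centred at the divergent Cd3g and Cd3d starts, which fell in a 19600 bp gap between neighbouring peak centres. Gaps of that length or longer made up 28.4% of the gaps in the list. This share counts each gap once, whereas a fixed position falls more often in a long gap, so it is not a share of TSSs. Repeat-masked bases made up 11.0% of the 250 bp on each side of the Cd3g TSS and 4.39% at Cd3d.

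With 50 kb added on each side, the Cd3 window of 140 kb held 13 peaks, a density of 9.28 per 100 kb. Only 5 of the 13 carried a Cd3 gene name, and the other 8 belonged to neighbours. These neighbours were Atp5l and Ube4a on the Cd3g side and Mpzl2 and Mpzl3 on the Cd3e side, and Atp5l, Ube4a and Mpzl3 each had a peak within 21 bp of a TSS. Most peaks around the cluster were thus named for other genes, and in a pooled list they cannot be told apart by cell type.

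The Cd8 cluster on chromosome 6 holds Cd8b1 and Cd8a, which encode the beta and alpha chains of CD8, on the same strand with TSSs 50639 bp apart. In this list the cluster was almost empty. No peak lay within the 56.4 kb from the start of Cd8b1 to the end of Cd8a, and the window with 50 kb on each side held 1 peak in 156 kb, a density of 0.639 per 100 kb. That peak was chr6:71316429-71316927, intergenic and 6110 bp upstream of Cd8b1. It is 41.7% GC, has 0 CpG dinucleotides in 499 bp, and holds 2 ETS, 1 RUNX and 2 TCF/LEF strings, with 1 of each in the stretch printed above. It was the only peak of the members without a CpG. With 100 kb on each side the Cd8 window held 6 peaks, a density of 2.34 per 100 kb, against 10.8 for the Cd3 window. The density over the whole list was not computed.

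Both Cd8 TSSs fell in a single gap of 124079 bp between neighbouring peak centres. Gaps at least as long made up 3.55% of the 84222 gaps in the list, whose median was 9187 bp. Because a TSS falls more often in a long gap than in a short one, this share makes the gap look rarer than it is for a gene. The gap ran from the Cd8b1 peak to the promoter peak of Rmnd5a, centred at -120 bp relative to that gene's TSS. For Cd8a the nearest peak was 56749 bp from the TSS, and 87.6% of protein-coding genes had a nearer one. For Cd8b1 the corresponding share was 72.2%. Repeat-masked bases made up 5.59% of the 250 bp on each side of the Cd8a TSS and 14.0% at Cd8b1. Enhancers between and around the Cd8 genes are known from mouse genetics. The list names no such element, and its peaks were not matched to them. A gap in the list shows that no peak there was kept in the pooled list, not that the chromatin was closed in every cell type.

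**Figure D3:**
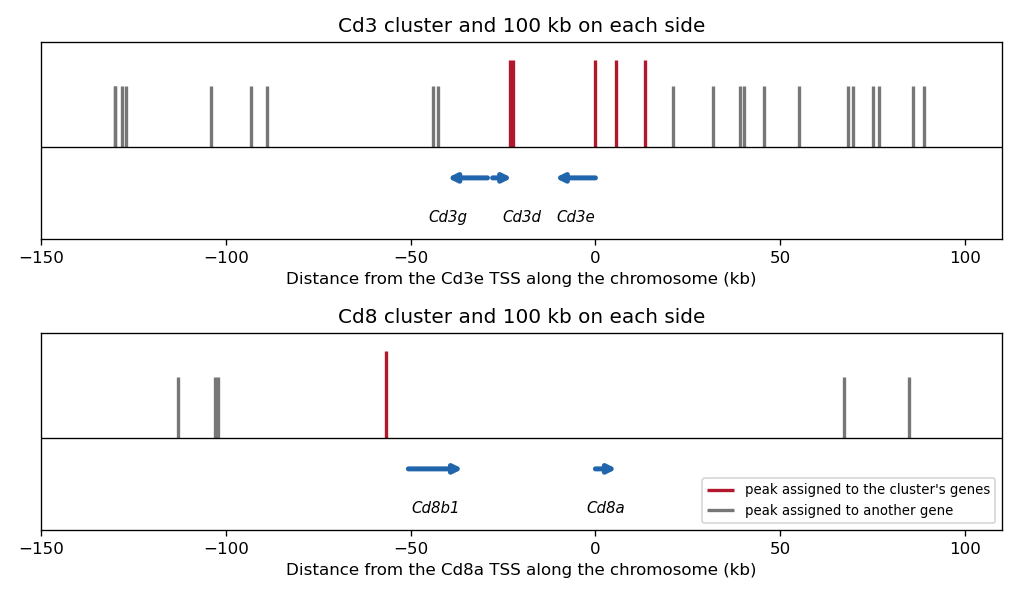
Peaks (vertical lines) and transcripts (arrows in the direction of transcription) along the Cd3 and Cd8 clusters with 100 kb on each side (x axis, kb from the Cd3e or Cd8a TSS along the chromosome). Red tall lines are peaks assigned to a gene of the cluster and grey short lines are those of neighbours. The Cd3 panel holds 26 peaks and the Cd8 panel 6, with 1 red line upstream of Cd8b1.

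Cd247 encodes the zeta chain, which carries more tyrosine motifs than any other chain of the receptor. It lies on chromosome 1, spans 73.4 kb and had the most peaks of the members. Its promoter peak, chr1:165788414-165788912, was centred 18 bp upstream of the TSS and held ETS, TCF/LEF, GATA and CAGGTG strings, the most families of the 7 promoter peaks. Of its 11 distal peaks, 8 lay in intron 1 of 7, between 22713 and 65209 bp downstream of the TSS. One more was in intron 5, 69884 bp downstream, and 2 were upstream, at 7949 and 2103 bp. The first 22.7 kb of the gene downstream of the promoter peak thus held no peak. Gaps at least as long made up 24.8% of the gaps in the list, again counting each gap once and not by TSS.

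The Cd247 intron peaks came partly in close pairs. The peaks 64570 and 65209 bp downstream are neighbours within 1000 bp, and the pair at 40095 and 41548 bp is only slightly wider. RUNX strings were found in 6 of the 11 distal peaks, against 42.5% of distal peaks in the list, and ETS strings in 7, against 65.0%. The peak at chr1:165829980-165830478 held 3 RUNX and 2 GATA strings besides 1 ETS and 1 CAGCTG. CTCF strings were found in 2 of the members' distal peaks, and both were Cd247 peaks, at 65209 and 69884 bp. The peak 56519 bp downstream was the one member peak that HOMER placed in a CpG island, with 31 CpG dinucleotides and 64.3% GC. No curated RefSeq TSS of Cd247 lies there: all 5 of its curated transcripts start at the same base.

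Cd4 encodes the coreceptor for MHC class II. It had 2 peaks and neither was at its promoter. One, at chr6:124885117-124885615, lay in intron 1 of 9, 2834 bp downstream of the TSS, and was the nearest to it. The other, at chr6:124898252-124898750, was intergenic and 10301 bp upstream. Of protein-coding genes, 67.0% had a peak nearer to the TSS than Cd4 did. The printed stretches differ in their strings. The intron stretch holds 1 ETS and 1 TCF/LEF string and no RUNX string, whereas the upstream stretch holds 2 RUNX, 1 ETS and 1 CAGGTG string and runs into a long CA repeat, with 33.7% of the whole peak repeat-masked. The first intron of Cd4 is known to contain a silencer that acts through RUNX factors, and an enhancer lies upstream of the gene. Neither peak was assigned to these elements here. Around the other end of Cd4, within 10 kb of the transcript, the list had 2 peaks of P3h3 and 1 of Gpr162.

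Lck encodes the kinase that is carried by CD4 and CD8. The gene has a distal and a proximal promoter, of which the proximal one is known for its use in thymocytes, and both had a peak. The distal TSS peak, chr4:129573405-129573903, was centred 13 bp upstream of its TSS. The proximal TSS peak, chr4:129558221-129558719, was centred 98 bp upstream of its own TSS, which lies 15269 bp into the gene, within intron 1 of 12 of the longer transcript. Both peaks had CAGGTG strings. The distal one held 3 ETS strings and 1 RUNX string, and the proximal one held 1 ETS string and no RUNX string. The third peak, chr4:129575146-129575644, was intergenic and 1754 bp upstream, the shortest distance of any distal peak of the members. The Lck transcript held 2 further peaks that HOMER gave to the microRNA gene Mir8119. One was in intron 6, at chr4:129556360-129556858, and the other in exon 4, at chr4:129557188-129557686. With 10 kb added on each side, 9 peaks lay in and around Lck, of which 3 carried its name.

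Zap70 encodes the kinase that binds the phosphorylated CD3 tails. It had 2 promoter peaks. The peak at chr1:36761544-36762042 was centred 5 bp upstream of the first TSS, the closest match of peak and TSS among the members. The peak at chr1:36766332-36766830 was 353 bp upstream of an internal TSS of a shorter transcript, within intron 1 of 12. The other 2 of the 4 curated TSSs had no peak within 500 bp, with the nearest at 2066 and 5871 bp. CAGGTG occurred 3 times in the first promoter peak, more often than in any other promoter peak of the members, and 2 of these matches stand close together near the start of the printed stretch.

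Only the internal promoter peak of Zap70 lay inside its RefSeq Select transcript. Upstream, 3 peaks at 16999, 15158 and 7626 bp lay in introns of a non-coding transcript. Downstream distances are from the last internal TSS, the nearest one. By these, 1 peak was intergenic at 5871 bp, which is 23057 bp from the first TSS. The last 4 peaks stood 17935 to 56857 bp downstream, or 35121 to 74043 bp from the first TSS. These 4 lay in introns of the neighbouring gene Tmem131, between introns 8 and 35 of 40. HOMER gave them to Zap70 because its promoter was the nearest, and the list holds no measure of which gene a distal peak contacts. CAGCTG occurred in 5 of the 8 distal Zap70 peaks and CAGGTG in 6, against 30.4% and 32.9% of all distal peaks in the list. The 4 peaks in Tmem131 introns all held CAGCTG. The peaks at 7626 bp upstream and 56857 bp downstream held strings of 5 families, the most of any member peak.

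Lat encodes the membrane adaptor that ZAP70 phosphorylates. It had 1 peak, at its promoter, chr7:126369304-126369802, centred 15 bp downstream of the TSS in exon 1. Its GC content of 65.7% was the highest of the member peaks. The count for Lat depended on the naming of a microRNA gene. Between 12292 and 45625 bp downstream of the Lat TSS, 6 peaks were named for Mir7058. When each peak was given to the nearest TSS of a protein-coding gene, these became peaks of Lat, which went from 1 to 7 peaks, and the members' total from 34 to 40. The counts of the other 9 genes were the same under both assignments.

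The other genes of the pathway had more peaks per gene than the receptor chains, coreceptors and first kinases. The list of 32 further signalling genes, which includes kinases, phosphatases, adaptors and transcription factors downstream of the receptor, had 385 peaks, a median of 10.5 per gene and a range of 3 to 26. A promoter peak was found at 31 of the 32, against 54.8% of all protein-coding genes, 77.2% of CpG-rich and 20.7% of CpG-poor ones. The exception was Sla, an adaptor that dampens receptor signalling, with 24 peaks and the nearest of them 1742 bp from its TSS. The most peaks were at Pag1, a membrane adaptor that recruits CSK (26 peaks), Rasgrp1, which activates RAS (25), Sla (24), Prkcq, the protein kinase C of the T cell synapse (23), and the calcium-regulated factors Nfatc1 and Nfatc2 (21 each). These genes are longer, with a median transcript of 54.4 kb against 12.8 kb for the members and 16.2 kb over all genes, and 16 of the 32 had a CpG-poor TSS against 10 of 10 members and 39.6% of all protein-coding genes.

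The other lists had only CpG-poor TSSs, as the members did. Promoter peaks were found at 5 of the 10 members, against 20.7% of all CpG-poor genes. T cell costimulation genes had a promoter peak at 9 of 11, with a median of 8 peaks and the most, 16, at Cd2, an adhesion receptor. B cell receptor genes had one at 6 of 9, with a median of 3 peaks and the most, 15, at Syk, the relative of ZAP70 that serves the B cell receptor. The lists are small, no test was made between them, and the part of transcript length and CpG content in the differences was not tested.

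**Figure D4:**
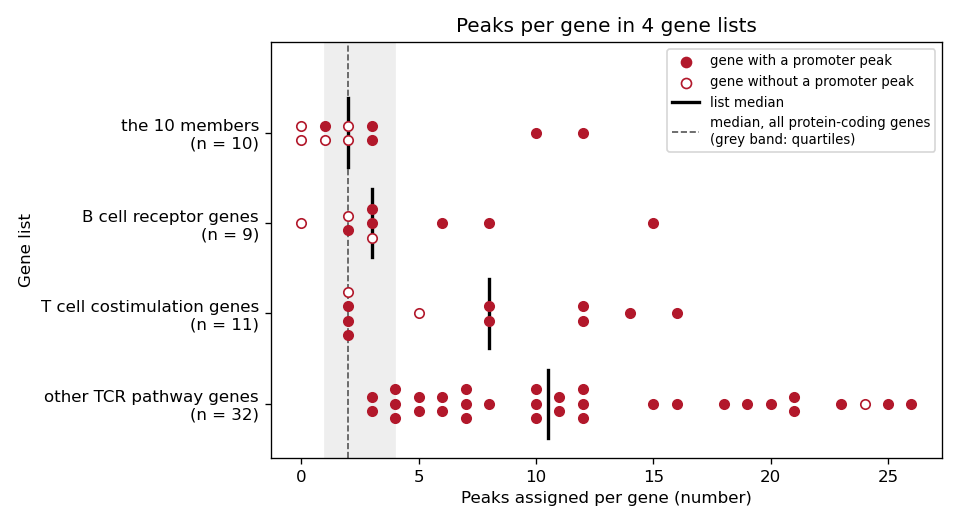
Peaks assigned per gene (x axis, number) for the 10 members and 3 other gene lists (y axis), with 1 point per gene, filled where the gene has a promoter peak. Black bars are list medians, and the dashed line and grey band are the median and quartiles of all 21000 protein-coding genes. The members' median of 2 falls on the dashed line and that of the other pathway genes stands at 10.5.

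Strings of 8 motifs were counted on both strands of the whole peaks. They were the 6 strings above, TATAAA, and a CTCF consensus, and a match is a description of letters, not of binding. All 7 promoter peaks of the members held the ETS string, against 48.1% of all promoter peaks in the list and 68.1% of the 2279 promoter peaks with CpG-poor sequence. CAGGTG occurred in 6 of 7, against 31.3% and 34.3%, with Lat as the exception. Both strings together occurred in the same 6 peaks and in 23.2% of CpG-poor promoter peaks. The TCF/LEF string was found in 3, those of Cd247 and Zap70, against 16.2% and 26.5%. In the central 200 bp, ETS was in 5 of the 7, against 24.6% of all promoter peaks. CAGGTG was there in 4, against 11.5%, and TCF/LEF in 3, against 5.92%. With 1 mismatch allowed, 99.8% of all promoter peaks held ETS and 99.7% held CAGGTG, so that match separates nothing.

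The other strings were each found in at most 2 of the members' promoter peaks. RUNX was found in 2 of 7, at the Lck distal promoter and Lat, against 19.6% of all and 34.8% of CpG-poor promoter peaks. CAGCTG was found in 2, at Cd3e and Lat, against 26.1% and 36.8%. GATA was found in 1, at Cd247, against 8.66% and 19.8%. The TATAAA string, present in 7.81% of all and 16.0% of CpG-poor promoter peaks, was in none of the 7, nor was the CTCF string, present in 1.37% and 2.37%. With 7 peaks, 2 each from Lck and Zap70, these shares move in large steps.

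In the 27 distal peaks the shares over the whole 499 bp were closer to those of the list. ETS strings were in 18 (66.7% against 65.0%, but 9 against 44.6% in the central 200 bp), RUNX strings in 13 (48.1% against 42.5%) and GATA strings in 7 (25.9% against 26.9%, and 1 against 12.7% in the central 200 bp). TCF/LEF strings were in 7 (25.9% against 31.6%). CAGCTG and CAGGTG were each in 12 (44.4%), against 30.4% and 32.9%. In the central 200 bp they were in 11 and 9 of the 27, against 17.5% and 16.0%. Over the whole peaks, Cd247 and Zap70 gave 5 each of the 12 with CAGCTG, and 3 and 6 of the 12 with CAGGTG. The E-box shares thus describe mainly these genes. TATAAA was in 4 (14.8% against 23.5%), namely the farther upstream peak of Cd3e and the 3 upstream peaks of Zap70, and the CTCF string in 2 (7.41% against 6.29%).

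**Figure D5:**
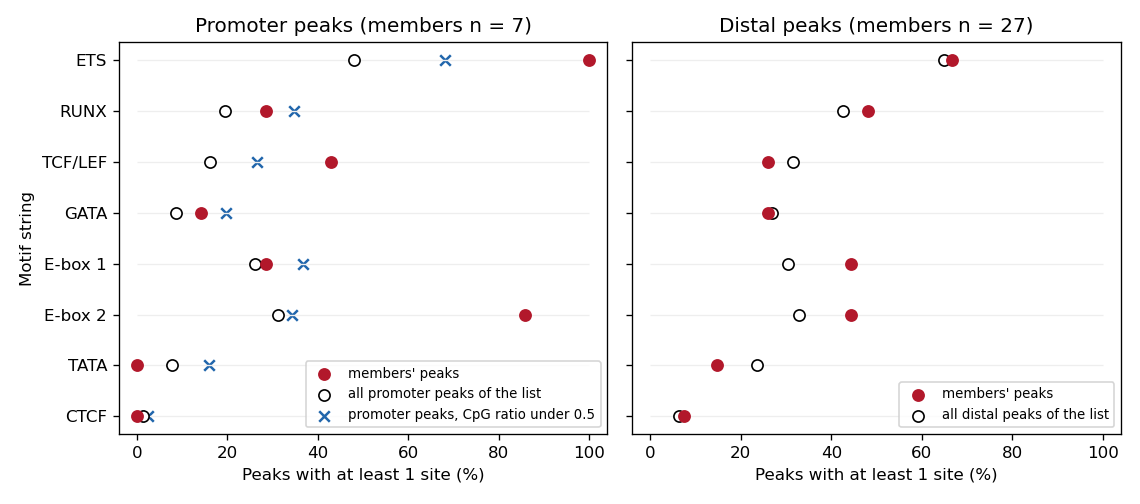
Share of peaks with at least 1 match (x axis, percent) for each motif string (y axis), in promoter peaks (left) and distal peaks (right). Red points are the members (7 and 27 peaks), open circles are all peaks of that kind in the list and crosses are promoter peaks with a CpG ratio under 0.5. E-box 1 is CAGCTG and E-box 2 is CAGGTG. The ETS and E-box 2 points stand apart at promoters, at 100% and 85.7%.

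Base composition differed between the members' promoter peaks and promoter peaks at large. Their median GC content was 57.9% against 63.3% in the list, and their median ratio of observed to expected CpG was 0.26 against 0.78. The 7 promoter peaks ran from 49.5% GC at Cd247 to 65.7% at Lat. Distal peaks had a median GC content of 51.7% against 47.7% and a CpG ratio of 0.21 against 0.22. The centres of 4 of the 27 distal peaks lay in a repeat (14.8% against 17.9% in the list). They were 1 upstream peak of Cd247 in a LINE element and 3 peaks of Zap70, 1 in a B2 element and 2 in ORR1 elements.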

How the data were processed

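ATAC-seq was measured in 12 samples, 2 of each of 6 cell types. Per the labels and the study's methods, the authors called peaks on mm10 with the ENCODE pipeline, leaving out multimapping reads, kept the optimal reproducible list of each cell type, joined the lists, filtered them to non-overlapping peaks with chromVAR and annotated them with HOMER (4.10.2). Positions and distances to the TSS are in bp as deposited by the authors. The deposited peak score was 0 throughout and was not used. No depth or value per sample was given, so no test was made.

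Peaks were selected by gene name. A peak was a promoter peak up to 500 bp from a TSS by the deposited distance. RefSeq release 108 of GRCm38.p6 gave gene positions and sequence, with 1 RefSeq Select transcript per gene. All 10 members matched. CpG-poor meant an observed to expected ratio under 0.5. Motifs were exact strings, and the search found 200 of 200 planted sites for each motif in a simulated test. Members and lists were chosen with earlier results of these data known. Named genes were the members, in the pathway list the 5 with the most peaks (6 with a tie) and any without a promoter peak, and in each other list the one with the most. The distal peak printed for a cluster was the one with the most motif families; in the Cd3 cluster 3 tied, and the Cd3e peak was taken because the Cd3d peaks overlap the untranslated end. The Cd4 sequences were added after their values were seen. Alternatives concerned gene assignment, merging, promoter width, window size, motif match and the CpG limit. Computations were run in Python (3.11.15) with pandas (2.3.3) and numpy (2.4.6), intervals came from scipy (1.17.1), and plots were drawn by matplotlib (3.10.9).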

Additional observations from a re-analysis of the deposited data

How the results depend on the processing

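No paired analysis was possible because the list is pooled over all samples and gives no values per replicate, and for the same reason no replicate could be left out. Of 37 alternatives over 15 results, 21 gave a value within 1.5 times the reported one or, for a percentage, inside its counting interval, and 16 moved further. The members had 34 peaks by gene name, and 31 when close neighbours were merged, 39 within 10 kb of the transcripts and 40 by nearest protein-coding TSS. Under a basal plus extension rule, chosen after seeing the data, they had 73. That rule gives a peak to every gene whose domain reaches it. In the totals of 39 and 73 each peak was counted once, also where it fell to more than 1 gene. Promoter peaks ranged from 5 to 7 over the promoter definitions and genes with one from 4 to 5, Cd3e being the gene lost. The Cd3 window held 6 peaks with 10 kb added and 26 with 100 kb, against 13 with 50 kb, and the Cd8 window held 6 with 100 kb against 1. Within 10 kb of the transcripts the counts moved by gene more than the total did: Zap70 went from 10 to 4, Lck from 3 to 9, Cd3g from 0 to 4, Cd4 from 2 to 4, Lat from 1 to 3 and Cd3e from 3 to 2. In the central 200 bp, of 27 distal peaks 9 held ETS (44.6% in the list), 8 RUNX (26.0%), 3 TCF/LEF (13.8%) and 1 GATA (12.7%), while 11 held CAGCTG (17.5%) and 9 held CAGGTG (16.0%). With 1 mismatch allowed, all 27 distal peaks held the RUNX, TCF/LEF and GATA strings and both E-box strings, and 5 held CTCF, so that match separates nothing except for CTCF. With CpG limits of 0.4 and 0.6, also chosen after seeing the data, 17.2% and 25.9% of CpG-poor genes had a promoter peak, against 20.7%. The median over all genes was 3 peaks among named genes and 2 with genes without a peak counted. Depth is unknown, so a missing peak cannot be told apart from a peak too weak to be kept.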

Other observations

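Under the basal plus extension rule, which gives each gene the stretch up to its neighbours' basal domains, 4 genes kept the count they had by name and 6 had more. Cd3g had 0 peaks in a domain of 14.8 kb, Cd8a had 0 in 116 kb, Cd8b1 had 1 in 76.7 kb and Cd3d had 2 in 28.8 kb. Cd4 had 3 in 44.7 kb. Lat, with 1 peak by name, had 12 in 103 kb. Cd247 had 28 in 237 kb and Zap70 had 17 in 223 kb. Cd3e and Lck, with 3 each by name, had 6 each, in 57.6 and 32.9 kb. The Cd3e domain also took in the 2 Cd3d peaks. Domain length thus differed widely between the genes, and Cd8a had the longest domain without a peak among the 10.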
